A study of Mus musculus with 12 samples.

Results

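The secreted and enzymatic molecules by which regulatory T cells (Tregs) restrain other cells were followed as 9 genes: Il10, Tgfb1, Ebi3, Il12a, Areg, Nt5e, Entpd1, Gzmb and Fgl2. They were picked by gene symbol from the 17955 genes of the deposited table, and all 9 symbols were found. RNA came from the CD4+CD25+YFP+ fraction of spleen and lymph node, sorted as Tregs, of C57BL/6 mice aged 7 weeks. All mice carried Foxp3YFP-cre, a Cre recombinase with a yellow fluorescent protein driven from the Foxp3 locus, so Cre acts in cells that express or have expressed Foxp3. They were either Foxp3YFP-creTKT+/+ (WT) or Foxp3YFP-creTKTfl/fl (cKO); the cKO cells lose transketolase, an enzyme that shuttles carbon units between sugar phosphates in the non-oxidative branch of the pentose phosphate pathway. Both genotypes drank vehicle or DMαKG, an ester of α-ketoglutarate that enters cells, given from the dam's pregnancy until the offspring were adult. This gave 4 groups of 3 libraries, 12 in all. The vehicle groups are numbered 2 to 4 and the DMαKG groups 1 to 3, and the labels do not say whether a library pooled animals.

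Tregs act on other lymphocytes and on antigen-presenting cells through several soluble routes. Interleukin 10 and transforming growth factor β are cytokines that damp inflammatory responses, and Ebi3 and Il12a encode the chains of the heterodimer interleukin 35. The surface enzymes CD39 (Entpd1) and CD73 (Nt5e) act in series, the first turning extracellular ATP and ADP into AMP and the second turning AMP into adenosine, which signals through receptors on responding cells. Granzyme B (Gzmb) is a serine protease released from granules, amphiregulin (Areg) is a ligand of the epidermal growth factor receptor known from tissue repair by Tregs, and Fgl2 is a secreted fibrinogen-like protein that binds low-affinity Fc receptors.

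The promoters of 3 members are shown because these genes varied most between libraries among the tested members with an entry in the RefSeq promoter table (GRCm38.p6). Il10 has no entry there. Each window holds the 250 bases before the annotated start, on the strand of the gene, and capitals mark matches to the motifs named after the sequences. The Areg window is chr5:91139349-91139598 (plus strand), the Gzmb window chr14:56262335-56262584 (minus strand) and the Fgl2 window chr5:21372423-21372672 (plus strand).
Areg: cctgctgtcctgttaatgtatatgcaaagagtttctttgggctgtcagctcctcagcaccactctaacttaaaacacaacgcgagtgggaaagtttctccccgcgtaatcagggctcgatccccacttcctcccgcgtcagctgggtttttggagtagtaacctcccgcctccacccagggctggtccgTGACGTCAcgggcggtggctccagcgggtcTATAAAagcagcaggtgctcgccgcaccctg
Gzmb: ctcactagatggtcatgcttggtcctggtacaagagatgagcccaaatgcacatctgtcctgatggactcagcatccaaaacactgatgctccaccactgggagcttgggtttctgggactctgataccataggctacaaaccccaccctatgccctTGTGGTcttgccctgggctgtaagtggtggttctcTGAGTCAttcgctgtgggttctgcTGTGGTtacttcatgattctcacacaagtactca
Fgl2: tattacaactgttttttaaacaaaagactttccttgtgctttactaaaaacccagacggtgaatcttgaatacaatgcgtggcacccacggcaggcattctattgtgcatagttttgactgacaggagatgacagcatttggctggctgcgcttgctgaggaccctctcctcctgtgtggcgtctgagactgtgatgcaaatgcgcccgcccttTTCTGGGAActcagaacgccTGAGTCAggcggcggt

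The windows were searched on both strands for an AP-1 motif (TGANTCA), a cyclic AMP response element (TGACGTCA), a TATA box (TATAAA), a GAS element bound by STAT proteins (TTCNNNGAA) and a RUNX motif (TGTGGT). In the Areg promoter the cyclic AMP response element lay 61 to 54 bases before the start and the TATA box 31 to 26 bases before it. The Gzmb promoter held an AP-1 match 58 to 52 bases before the start, with RUNX matches at 93 to 88 and at 34 to 29 bases. The Fgl2 promoter held an AP-1 match 16 to 10 bases before the start and a GAS match 36 to 28 bases before it. None of these matches overlapped another. Of 32851 RefSeq promoter windows of the same length, 6.75% held the AP-1 motif, 1.55% the cyclic AMP response element, 12.4% the TATA box, 7.02% the GAS element and 14.0% the RUNX motif. The windows of Ebi3, Tgfb1, Nt5e and Entpd1 held none of these letters, and 1 of the 2 windows of Il12a held a RUNX match. The GC content was 57.2% for Areg, 50.8% for Gzmb and 49.6% for Fgl2, against 75.2% for Tgfb1 and 72.0% for Nt5e and a median of 52.4% over all windows. A match describes the letters only and was not tied to binding by any measurement here.

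Libraries held between 1.57e+07 and 1.89e+07 estimated counts. Tkt stood at 102 to 194 CPM (counts scaled by TMM-adjusted library size) in the 6 WT libraries and at 26.2 to 41.8 CPM in the 6 cKO libraries. Foxp3, the factor that defines Tregs, stood at 280 to 545 CPM, and 8 Treg markers were detected in every library with a summed level of 4286 to 7013 CPM. On the first principal component, which held 27.9% of the variance, 3 libraries of different groups sat together: replicate 4 of WT vehicle at 34.1, replicate 4 of cKO vehicle at 35.1 and replicate 3 of WT DMαKG at 31.2. At the other end was cKO DMαKG replicate 3, at -48.4. The cKO vehicle replicates 2 and 3 stood at 21.6 and 6.56, and the cKO DMαKG replicates 1 and 2 at -20.5 and -17.7. In cKO mice the first component therefore ran along with DMαKG, also when the 3 libraries are set aside. The Y-linked gene Ddx3y was at 0.0555 to 0.518 CPM in WT vehicle replicate 3 and cKO DMαKG replicates 1 and 3, at 22.6 CPM in WT DMαKG replicate 2, and at 109 to 241 CPM elsewhere. The cKO vehicle libraries were all high, at 156, 219 and 190 CPM. In cKO mice a Y-linked difference therefore runs partly along with DMαKG. Results that rest on the 3 libraries at the end of the first component are given with and without them.

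Per transcript length, the ectoenzyme gene Nt5e and the cytokine gene Tgfb1 were the most abundant members. The deposited TPM averaged 189 ± 24.7 for Nt5e and 180 ± 40.7 for Tgfb1 (SD, n = 12), and Nt5e was above Tgfb1 in 6 of 12 libraries, so their order is not resolved. Tgfb1 was above Ebi3, the next in order, in 12 of 12 libraries. Ebi3 (49.0 ± 15.6 TPM), Il10 (40.9 ± 22.0), Fgl2 (28.7 ± 14.7), Areg (27.5 ± 19.6), Gzmb (24.9 ± 12.6) and Entpd1 (21.0 ± 3.93) formed a series whose neighbours did not differ beyond their spread. Within it each gene was above the next in 6 or 7 of 12 libraries. The lowest library of Nt5e (152 TPM) thus lay above the highest of Entpd1 (28.4 TPM), whose product acts before CD73 in the series of reactions. Il12a was last at 0.0742 TPM, below Entpd1 in 12 of 12 libraries. The order was the same for 9 of 9 members by FPKM. Within a library TPM and FPKM differ only by a common factor, so this is not a separate check of the order.

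**Figure D1:**
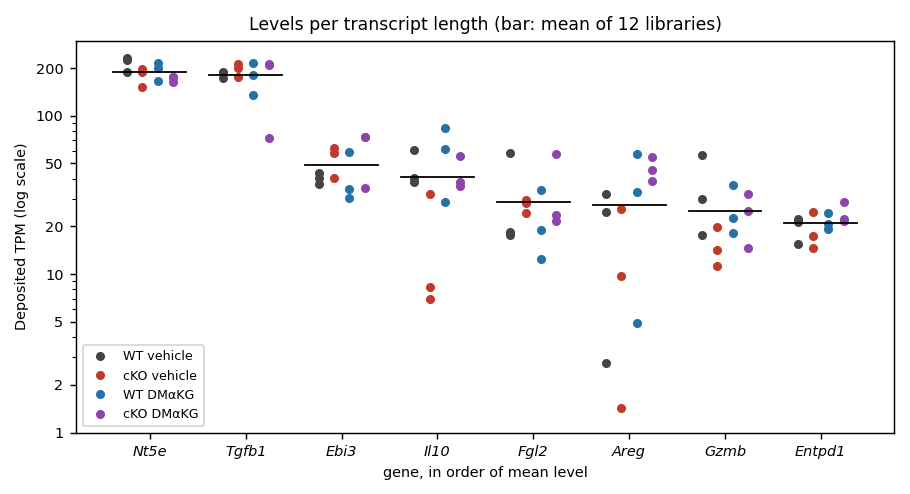
Deposited TPM (log axis) of the 8 members other than Il12a, ordered by mean level, with 1 point per library coloured by group and a bar at the mean of 12 libraries. Nt5e and Tgfb1 lie near 180 TPM, and the 6 genes after them overlap, with Areg reaching from 1.42 to 57.1 TPM.

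The members differed in how steady they were from library to library. The coefficient of variation of CPM over the 12 libraries was 9.59% for Nt5e, 20.2% for Entpd1, 20.2% for Tgfb1 and 30.9% for Ebi3. It was 49.3% for Gzmb, 50.4% for Fgl2, 55.3% for Il10 and 73.2% for Areg, whose highest library was 39.9 times its lowest. For genotype with vehicle, the SE of the log2 fold change was 0.13 for Nt5e, 0.17 for Entpd1, 0.25 for Ebi3 and 0.26 for Tgfb1. It was 0.46 for Gzmb, 0.52 for Fgl2, 0.59 for Il10 and 1.08 for Areg. The ectoenzyme genes thus had the narrowest intervals, and Areg, Il10, Fgl2 and Gzmb the widest, as the plot of fold changes shows.

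**Figure D2:**
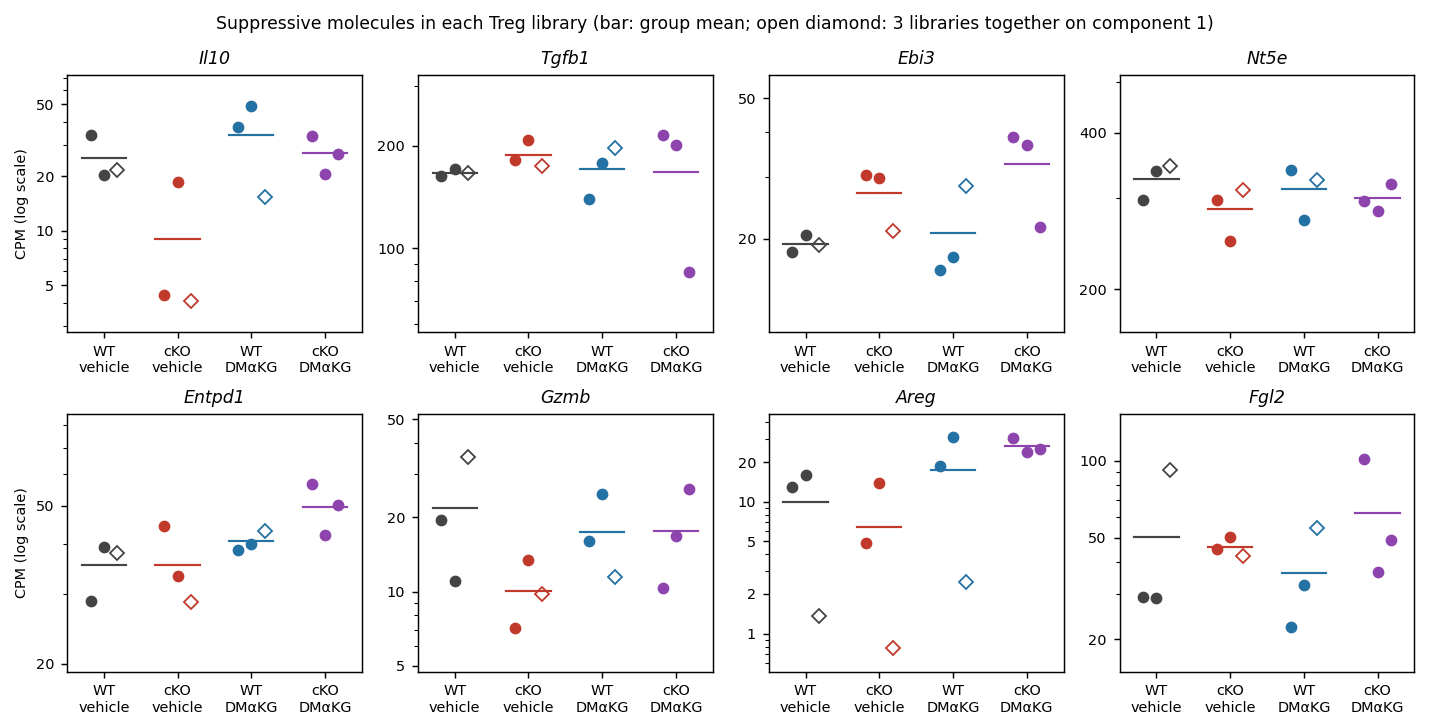
CPM (log axis, its range differing by panel) of the 8 tested members in each of the 12 libraries by group, with a bar at the group mean. Open diamonds mark replicate 4 of both vehicle groups and replicate 3 of WT DMαKG, the 3 lowest libraries for Areg. For Il10, 2 of the 3 cKO vehicle libraries lie near 4 CPM, below all other libraries.

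Of the 9 members, 8 had enough counts to be tested with edgeR's quasi-likelihood test, and 0 passed an adjusted p of 0.05 in any of the 7 contrasts. DESeq2 likewise called 0 of them in each contrast, and limma voom called 1 in each of 3 contrasts, given with Ebi3 and Entpd1. The first contrast asked how loss of transketolase altered these genes with vehicle. There 0 of 8 members passed, where 0.0620% of 12903 tested genes did. Members with an unadjusted p below 0.05 numbered 2 of 8, Il10 and Gzmb, where 7.29% of all tested genes did. The estimate was higher in cKO for 2 members and lower for 6, with a median log2 fold change of -0.16 against 0.01 for all tested genes. The groups did not overlap for Tgfb1 and Ebi3 with cKO higher (8.29% of all tested genes) and for Il10 with cKO lower (7.01% of all). DMαKG in WT mice gave 0 passing members (0% of all tested genes), 0 with an unadjusted p below 0.05 (2.73% of all) and 0 whose groups did not overlap (8.45% of all). DMαKG in cKO mice gave 0 passing members (0% of all) and 2 of 8 with an unadjusted p below 0.05, Il10 and Entpd1, where 17.3% of all tested genes did. There 7 of 8 estimates were higher with DMαKG, with a median of 0.47 against 0.00374 for all genes, and the groups of 2 of 8, Il10 and Areg, did not overlap with DMαKG higher (8.91% of all). Genotype under DMαKG gave 0 passing members (0.186% of all), 1 with an unadjusted p below 0.05, Ebi3 (10.4% of all), and 0 whose groups did not overlap (15.0% of all). The test of whether the effect of DMαKG differed between the genotypes gave 0 passing members (0% of all) and 0 with an unadjusted p below 0.05 (3.64% of all). Averaged over treatments, genotype gave 0 passing members (1.01% of all) and 2 with an unadjusted p below 0.05, Ebi3 and Il10 (12.8% of all). Averaged over genotypes, DMαKG gave 0 passing members (0.00775% of all) and 2 with an unadjusted p below 0.05, Il10 and Entpd1 (15.9% of all). The vehicle genotype contrast and the contrast of DMαKG in cKO mice share the 3 cKO vehicle libraries, so a low or high value there enters both.

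**Figure D3:**
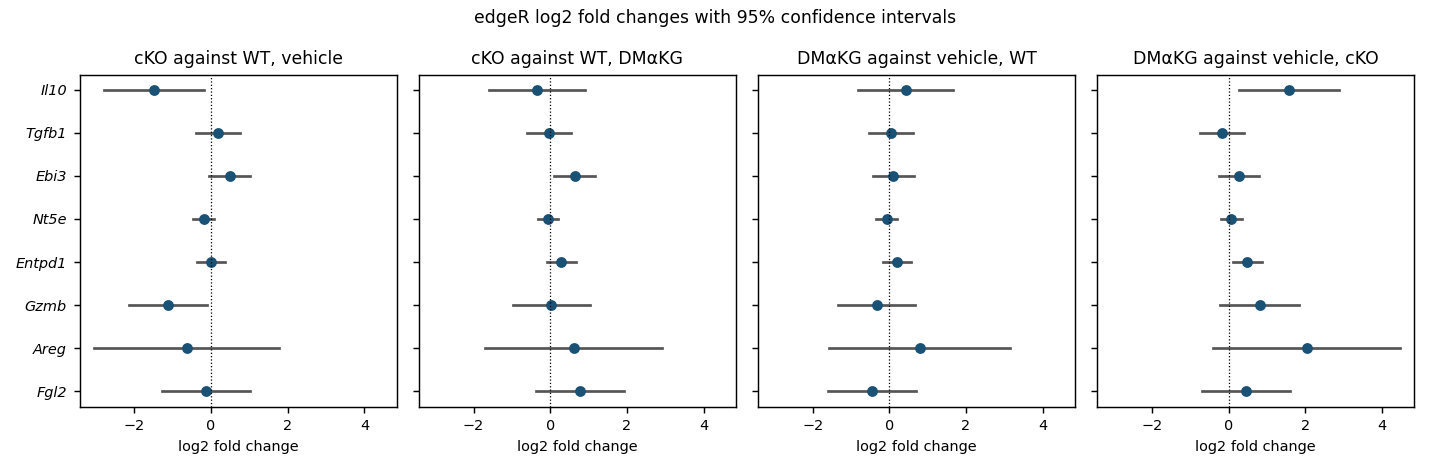
edgeR log2 fold changes (points) with 95% confidence intervals (lines) of the 8 tested members in the 4 pairwise contrasts, with 0 dotted. Nt5e has the narrowest intervals and Areg the widest, and the intervals of Il10 lie below 0 for genotype with vehicle and above 0 for DMαKG in cKO mice before adjustment for multiple tests.

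Among the cytokines, Il10 (chromosome 1, 131019845 to 131024970, GRCm38.p6) was lowest in cKO Tregs given vehicle. Given in ascending replicate number, here and below, the WT vehicle libraries held 34.0, 20.3 and 21.7 CPM and the cKO vehicle libraries 4.44, 18.5 and 4.13 CPM. The groups did not overlap, although cKO replicate 3 lay only just below the lowest WT library; over all tested genes 7.01% had groups that did not overlap with cKO lower. cKO against WT gave a log2 fold change of -1.49 (SE 0.59, 95% interval -2.80 to -0.18, edgeR adjusted p = 0.603), so the difference did not pass. It was -2.57 without cKO vehicle replicate 3, and -1.25 (edgeR adjusted p = 0.602) without the 3 libraries at the end of the first component. In bulk RNA, fewer cells transcribing a gene and less RNA per cell cannot be told apart, here and for the other members.

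Under DMαKG the WT libraries held 37.6, 48.7 and 15.4 CPM of Il10 and the cKO libraries 33.4, 20.5 and 26.7 CPM. All 3 cKO DMαKG libraries lay above all 3 cKO vehicle libraries, as for 8.91% of tested genes, and they lay within the range of WT DMαKG. The log2 fold change of DMαKG in cKO mice was 1.58 (SE 0.59, 95% interval 0.27 to 2.88, edgeR adjusted p = 0.226). It was 2.67 without cKO vehicle replicate 3 and 1.24 without the 3 libraries at the end of the first component. Over 24 alternatives, a fit with Y-linked expression as a covariate among them, it was 1.23 to 2.67. In WT mice it was 0.42 (SE 0.56, 95% interval -0.83 to 1.67), and the difference between these effects was 1.15 (SE 0.81, edgeR adjusted p = 0.955). Genotype under DMαKG gave -0.33 (SE 0.56), which turned to 0.03 without WT DMαKG replicate 2. Averaged over genotypes, the DMαKG estimate was 0.998 (SE 0.41, edgeR adjusted p = 0.281). Il10 is therefore described by a low cKO vehicle group, read from the same 3 libraries in both contrasts, that did not pass the test in either.

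Markers of other cell types are given beside this pattern, and their part in it was not tested. Over all tested genes, 7.29% had an unadjusted p below 0.05 for genotype with vehicle and 17.3% for DMαKG in cKO mice. Counts at that p, here and for the lists below, are to be read beside these shares. Of 15 monocyte and macrophage markers tested, 14 were lower in cKO than in WT with vehicle, with a median log2 fold change of -0.93 and 0 past the threshold. With DMαKG in cKO mice 11 of the 15 were higher, with a median of 0.85. Their summed level was 71.6 to 184 CPM in WT vehicle, 47.1 to 107 CPM in cKO vehicle, 52.6 to 182 CPM in WT DMαKG and 82.4 to 210 CPM in cKO DMαKG, and Cd14 was at 0 in cKO vehicle replicate 2. Of 6 conventional dendritic cell markers tested, 4 were lower in cKO with vehicle (median -1.46, 4 with an unadjusted p below 0.05) and 6 higher with DMαKG in cKO mice (median 0.82, 1 with an unadjusted p below 0.05), with 0 past the threshold. Their sum was 30.8 to 51.3 CPM in WT vehicle, 26.7 to 66.3 CPM in cKO vehicle, 25.9 to 40.8 CPM in WT DMαKG and 33.8 to 73.3 CPM in cKO DMαKG. Of 9 B and plasma cell markers tested, 7 were lower in cKO with vehicle (median -0.26) and 9 higher with DMαKG in cKO mice (median 0.67, 4 with an unadjusted p below 0.05), and 0 passed. These summed to 81.0 to 102 CPM in WT vehicle, 78.4 to 87.3 CPM in cKO vehicle, 87.9 to 93.7 CPM in WT DMαKG and 92.4 to 161 CPM in cKO DMαKG. Most of each sum was Xbp1 alone, at 64.1 to 92.2 CPM, so the sum says little about the other markers. Of 5 proliferation genes, 5 were lower in cKO with vehicle and 5 higher with DMαKG in cKO mice, with 0 past the threshold. Their sum was 380 to 620 CPM in WT vehicle, 163 to 696 CPM in cKO vehicle, 303 to 652 CPM in WT DMαKG and 446 to 820 CPM in cKO DMαKG. The summed Treg markers were 4629 to 4729 CPM in WT vehicle, 4286 to 5167 CPM in cKO vehicle, 4888 to 6008 CPM in WT DMαKG and 6180 to 7013 CPM in cKO DMαKG. Of the 8 Treg markers, 4 were higher and 4 lower in cKO with vehicle (median 0.03). With DMαKG in cKO mice 4 were higher and 4 lower (median 0.04), and 0 passed, so the higher sum there is not shared by all 8. Foxp3 itself stood at 433, 545 and 280 CPM in cKO DMαKG.

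The genes that carry or shape the interleukin 10 signal were read from a list of 16 that includes its receptor chains, kinases and T cell regulators, all tested. With vehicle 6 were higher and 10 lower in cKO, 0 passed, 2 had an unadjusted p below 0.05, and the median log2 fold change was -0.04 against 0.01 for all tested genes. Maf, a transcription factor that drives Il10 in T cells, averaged 193 ± 47.0 CPM in WT and 118 ± 8.44 CPM in cKO (SD, n = 3), a log2 fold change of -0.71 (SE 0.26, edgeR adjusted p = 0.547). Batf, a partner of Irf4 at AP-1 sites, averaged 66.7 ± 4.91 CPM in WT against 86.4 ± 14.0 CPM in cKO (log2 fold change 0.37, SE 0.15, edgeR adjusted p = 0.590). With DMαKG in cKO mice 8 of the 16 were higher and 8 lower, and 0 passed. Maf averaged 101 ± 18.1 CPM in cKO DMαKG, below its mean in cKO vehicle. Il10 averaged 26.9 CPM in cKO DMαKG against 9.02 CPM in cKO vehicle, so Maf did not follow Il10 there. The highest correlations of log2 CPM with Il10 over the 12 libraries, among 9823 genes with a mean of at least 5 CPM, were those of Abcc3, a membrane transporter (r = 0.91), the splicing factor gene Sf3b1 (r = 0.91) and Zfp458 (r = 0.89). These and the similar genes given below were picked as the highest of many, share the same 12 libraries, and carry no test.

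Tgfb1 (chromosome 7, 25687002 to 25705077), the transforming growth factor of Tregs, was close to level across the groups. It stood at 163, 171 and 167 CPM in WT vehicle and at 182, 207 and 174 CPM in cKO vehicle. With DMαKG in the water, the WT libraries gave 139, 178 and 197 CPM and the cKO libraries 216, 201 and 85.0 CPM. The vehicle groups did not overlap, with cKO higher as for 8.29% of tested genes, and cKO DMαKG replicate 3 was the lowest library of all. The log2 fold change with vehicle was 0.17 (SE 0.26, 95% interval -0.40 to 0.74, edgeR adjusted p = 0.967). The estimate for DMαKG in cKO mice was -0.17 (SE 0.26) and turned to 0.15 without cKO DMαKG replicate 3. In WT mice it was 0.04 (SE 0.26). Closest to Tgfb1 over the libraries were Vps52, of a tethering complex of the Golgi (r = 0.98), Ppp2r5d, a regulatory subunit of protein phosphatase 2A (r = 0.98), and Grk2, a G protein-coupled receptor kinase (r = 0.97).

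TGF-β is made as a latent complex that must be released before it signals. Of 19 genes of its tethering, release, receptors and SMAD signalling, 17 were tested; with vehicle 7 were higher and 10 lower in cKO (median log2 fold change -0.03), 0 passed and 1 had an unadjusted p below 0.05. Lrrc32, which encodes GARP, the protein that holds latent TGF-β on the Treg surface, averaged 148 ± 10.9 CPM in WT against 208 ± 43.3 CPM in cKO (log2 fold change 0.49, SE 0.31, edgeR adjusted p = 0.837). Itgav, a chain of the integrins that release it, averaged 86.1 ± 14.0 CPM in WT against 68.6 ± 4.93 CPM in cKO (log2 fold change -0.33, SE 0.14, edgeR adjusted p = 0.608). With DMαKG 12 of the 17 were higher in WT mice and 10 in cKO mice, and 0 passed in either.

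Ebi3 (chromosome 17, 55952623 to 55957022), the chain shared by interleukins 27 and 35, had the smallest p of the members in the genotype contrast averaged over treatments. The WT vehicle libraries held 18.3, 20.5 and 19.1 CPM and the cKO vehicle libraries 30.2, 29.8 and 21.0 CPM, groups that did not overlap. Under DMαKG the WT libraries gave 16.3, 17.8 and 28.3 CPM and the cKO libraries 38.9, 36.9 and 21.6 CPM. There the groups overlapped, since WT replicate 3 lay above cKO replicate 3. The log2 fold change of cKO against WT was 0.48 (SE 0.25, 95% interval -0.05 to 1.02, edgeR adjusted p = 0.746) with vehicle and 0.64 (SE 0.25, 95% interval 0.11 to 1.17, edgeR adjusted p = 0.373) with DMαKG.

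Averaged over treatments, the genotype estimate for Ebi3 was 0.56 (SE 0.17, 95% interval 0.19 to 0.94, edgeR adjusted p = 0.172), a fold of 1.48. The call depended on the tool. In limma voom with sample quality weights, which gives less weight to libraries that scatter more, Ebi3 passed in this contrast (log2 fold change 0.82, adjusted p = 0.00227) and under DMαKG (1.04, adjusted p = 0.0172). That fit called 1038 and 237 of all tested genes in these contrasts, where edgeR called 130 and 24. DESeq2 gave 0.56 (adjusted p = 0.0703) averaged over treatments. Without the 3 libraries at the end of the first component the edgeR estimate was 0.77 (adjusted p = 0.0941), and without cKO DMαKG replicate 3 it was 0.68 (edgeR adjusted p = 0.0537). DMαKG itself gave 0.11 (SE 0.25) in WT mice and 0.27 (SE 0.24) in cKO mice.

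The annotated interval of Ebi3 overlaps that of Zfp119b, a zinc finger gene, and no source used here says whether reads were counted by strand. Zfp119b stood at 8.69, 10.1 and 13.6 CPM in WT vehicle and at 15.9, 13.6 and 15.2 CPM in cKO vehicle, and at 8.61, 10.5 and 12.4 CPM in WT DMαKG and 12.7, 13.0 and 15.2 CPM in cKO DMαKG. Its 6 cKO libraries thus ranged from 12.7 to 15.9 CPM and its 6 WT libraries from 8.61 to 13.6 CPM, and its part in the Ebi3 values was not tested. The exons of Ebi3 and Zfp119b did not overlap in the annotation; an exon of the predicted gene Gm16712, not among the genes of the table, overlaps Ebi3. The genes most like Ebi3 over the 12 libraries were Dock6, a guanine nucleotide exchange factor (r = 0.94), Ppp5c, a protein phosphatase (r = 0.92), and Kif13b, a kinesin (r = 0.92). Dock6 ranged from 6.56 to 19.4 CPM, with its highest libraries in cKO DMαKG replicates 1 and 2, as for Ebi3.

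Il12a (chromosome 3, 68690644 to 68698550), the partner chain of Ebi3 in interleukin 35, was at or near the limit of detection. Its estimated counts were 0, 0 and 0 in WT vehicle, 0, 2 and 1 in cKO vehicle, 1, 0 and 0 in WT DMαKG, and 0, 1 and 4 in cKO DMαKG. It was at 0 in 7 of 12 libraries and did not enter the test. A count of 0 allows a level of up to 0.155 to 0.194 CPM by library, counting error only, and the highest library, cKO DMαKG replicate 3, stood at 0.254 CPM. No difference between groups was detectable at this depth. In the RNA of these cells Ebi3 was therefore measured in every library and its partner in few.

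Of 10 further genes of the interleukin 12 family, its receptors and STAT factors, 7 were tested, with 3 higher and 4 lower in cKO with vehicle (median log2 fold change -0.08), 0 past the threshold and 2 with an unadjusted p below 0.05. Il23r, a receptor chain of interleukin 23, was low, at 0.737 ± 0.403 CPM in WT against 0.320 ± 0.0458 CPM in cKO (log2 fold change -1.18, SE 0.48, edgeR adjusted p = 0.603).

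Areg (chromosome 5, 91139599 to 91148432) had the largest span of the members, and the 3 lowest libraries were the 3 at the end of the first component. The WT vehicle libraries held 12.9, 15.9 and 1.36 CPM and the cKO vehicle libraries 4.87, 13.8 and 0.774 CPM. Under DMαKG the WT libraries gave 18.6, 30.9 and 2.45 CPM and the cKO libraries 30.5, 24.0 and 25.0 CPM. The cKO DMαKG group, the 1 group with no library at that end, lay at 24.0 CPM or above and did not overlap cKO vehicle, as for the 8.91% of tested genes higher in this way.

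The log2 fold change of DMαKG in cKO mice was 2.03 (SE 1.09, 95% interval -0.40 to 4.47, edgeR adjusted p = 0.358). Without the 3 libraries it was 1.52 (edgeR adjusted p = 0.104), with the comparison left with cKO vehicle replicates 2 and 3. Over 24 alternatives, a fit with Y-linked expression as a covariate among them, it was 1.32 to 3.25. In WT mice the estimate was 0.79 (SE 1.05) with all libraries and 0.79 (edgeR adjusted p = 0.698) without the 3. Averaged over genotypes it was 1.41 (SE 0.75, edgeR adjusted p = 0.390) and, without the 3 libraries, 1.15 (edgeR adjusted p = 0.0677). Single libraries moved these estimates: in WT mice it was 0.06 without WT DMαKG replicate 2, and in cKO mice 3.25 without cKO vehicle replicate 3. Genotype gave -0.63 (SE 1.08) with vehicle, or -1.84 without cKO vehicle replicate 3 and -0.10 without cKO vehicle replicate 4. With DMαKG it gave 0.62 (SE 1.03), or 1.35 without WT DMαKG replicate 2 and 0.10 without WT DMαKG replicate 3. The intervals of Areg thus left room for large changes.

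The genes most like Areg were Nfil3, a transcription factor gene that is also in the interleukin 10 list (r = 0.99), Ptp4a1, a phosphatase (r = 0.99), and Spty2d1, a histone chaperone (r = 0.98). Over the 9 libraries without the 3 at the end of the first component, these correlations were 0.93, 0.97 and 0.90. Nfil3 stood at 72.1, 67.0 and 24.2 CPM in WT vehicle, at 43.2, 82.5 and 16.9 CPM in cKO vehicle, at 103, 111 and 30.6 CPM in WT DMαKG and at 123, 126 and 91.3 CPM in cKO DMαKG. Its 3 lowest libraries were the same 3. Areg and these 3 genes were thus lowest together in libraries that come from 3 of the 4 groups.

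**Figure D4:**
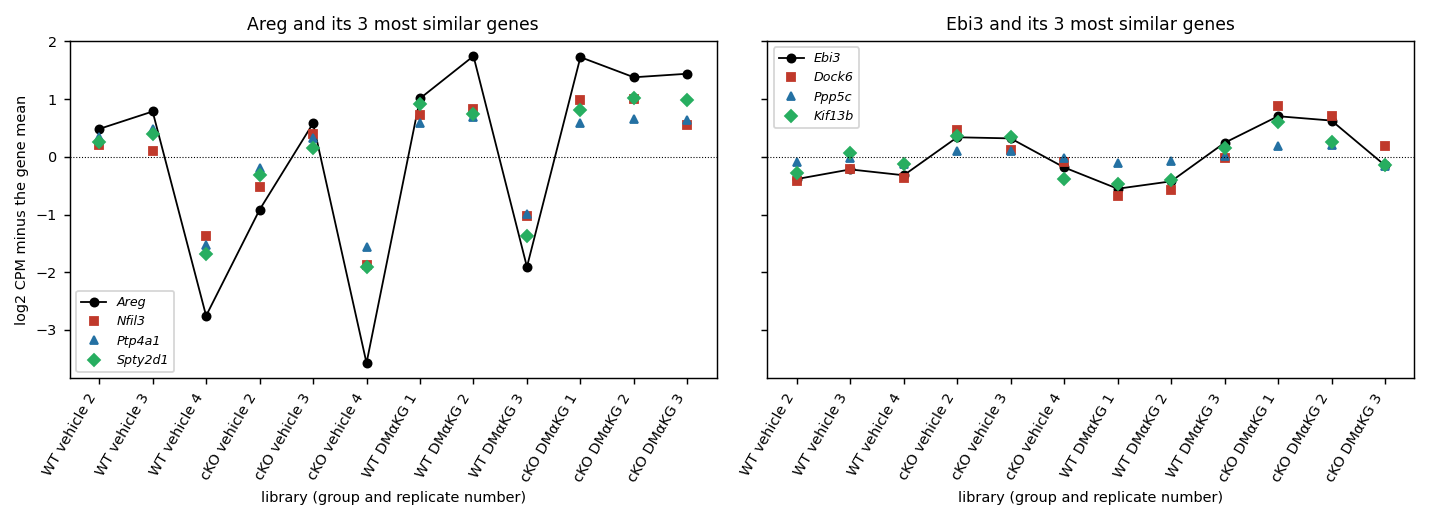
Log2 CPM minus the gene's mean over 12 libraries (vertical axis) in each library (horizontal axis) for Areg (left, black) and Ebi3 (right, black) with the 3 most similar genes of each (coloured markers). WT vehicle 4, cKO vehicle 4 and WT DMαKG 3 are low for Areg, Nfil3, Ptp4a1 and Spty2d1, while Ebi3, Dock6 and Ppp5c are highest in cKO DMαKG 1 and 2 and Kif13b in cKO DMαKG 1.

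Amphiregulin is cut from the cell surface by the protease ADAM17 with help from iRhom proteins. Of 13 genes of the epidermal growth factor family, its receptors and this shedding step, 10 were tested; with vehicle 2 were higher and 8 lower in cKO (median log2 fold change -0.16), 0 passed and 1 had an unadjusted p below 0.05. Adam17 averaged 130 ± 15.7 CPM in WT and 110 ± 7.83 CPM in cKO (estimate -0.24, SE 0.13, edgeR adjusted p = 0.773). Erbb2, a receptor of the family, was at 0.832 ± 0.411 CPM in WT against 0.0913 ± 0.114 CPM in cKO (log2 fold change -3.11, SE 0.94, edgeR adjusted p = 0.381), values close to or under the floor of 3 counts in cKO. With DMαKG in cKO mice 8 of the 10 were higher and 0 passed.

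Nt5e (chromosome 9, 88327609 to 88372089), which encodes CD73, was the steadiest member. It stood at 297, 337 and 345 CPM in WT vehicle and at 297, 248 and 311 CPM in cKO vehicle. Under DMαKG the WT libraries gave 339, 272 and 324 CPM and the cKO libraries 296, 283 and 318 CPM. The groups overlapped in every pairwise contrast. cKO against WT gave a log2 fold change of -0.19 (SE 0.13, 95% interval -0.47 to 0.08, edgeR adjusted p = 0.841) with vehicle and -0.06 (SE 0.13, 95% interval -0.33 to 0.21) with DMαKG. DMαKG gave -0.07 (SE 0.13) in WT mice and 0.07 (SE 0.13, 95% interval -0.20 to 0.34) in cKO mice. These intervals leave room for folds of 0.724 to 1.06 for genotype with vehicle and of 0.868 to 1.27 for DMαKG in cKO mice. By the same measure Nt5e was nearest to Uba6, a ubiquitin-activating enzyme (r = 0.89), Sec23a, of the vesicle coat of the endoplasmic reticulum (r = 0.87), and Casd1, a sialic acid acetyltransferase (r = 0.87).

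Entpd1 (chromosome 19, 40612366 to 40741602), which encodes CD39, had a genotype estimate near 0 with vehicle and its highest group mean in cKO Tregs given DMαKG. The WT vehicle libraries held 28.9, 39.4 and 37.97 CPM and the cKO vehicle libraries 44.4, 33.2 and 28.7 CPM. In mice given DMαKG, WT libraries gave 38.7, 40.0 and 43.2 CPM and the cKO libraries 56.8, 42.2 and 50.3 CPM. The cKO DMαKG group overlapped cKO vehicle through 1 library on each side, cKO vehicle replicate 2 and cKO DMαKG replicate 2.

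The genotype log2 fold change of Entpd1 with vehicle was -0.00023 (SE 0.17, 95% interval -0.38 to 0.38). DMαKG gave 0.49 (SE 0.17, 95% interval 0.11 to 0.87, edgeR adjusted p = 0.206) in cKO mice and 0.20 (SE 0.17, 95% interval -0.18 to 0.58, edgeR adjusted p = 0.999) in WT mice, and the difference between these was 0.29 (SE 0.25, edgeR adjusted p = 0.955). Averaged over genotypes the DMαKG estimate was 0.34 (SE 0.12, edgeR adjusted p = 0.228), a fold of 1.27. In limma voom with sample quality weights it passed (log2 fold change 0.43, adjusted p = 0.0293), in a fit that called 1546 genes where edgeR called 1. Without the 3 libraries at the end of the first component the edgeR estimate was 0.29 (adjusted p = 0.254). With Y-linked expression as a covariate it was 0.30 (edgeR adjusted p = 0.400). The genes most like Entpd1 were the predicted gene Gm5796 (r = 0.92), Cryzl2 (r = 0.90) and Dmap1, of chromatin-modifying complexes (r = 0.90).

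Adenosine is made by CD39 and CD73, removed by deaminase and kinase enzymes and by transport, and read by its receptors. Of 21 genes of this handling, 17 were tested, with 9 higher and 8 lower in cKO with vehicle, a median log2 fold change of 0.02, 0 past the threshold and 3 with an unadjusted p below 0.05. Slc29a1, which encodes the nucleoside transporter ENT1, averaged 67.8 ± 1.70 CPM in WT against 52.8 ± 2.25 CPM in cKO (log2 fold change -0.36, SE 0.10, edgeR adjusted p = 0.309). Cd38, an NAD-degrading ectoenzyme, averaged 30.0 ± 1.79 CPM in WT against 19.6 ± 1.39 CPM in cKO (log2 fold change -0.61, SE 0.18, edgeR adjusted p = 0.361). With DMαKG in cKO mice 7 of the 17 were higher and 10 lower, and 0 passed.

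Gzmb (chromosome 14, 56258836 to 56262334) was lower on average in cKO with vehicle, with overlapping groups. It stood at 19.5, 10.99 and 35.1 CPM in WT vehicle and at 7.10, 13.5 and 9.75 CPM in cKO vehicle. Under DMαKG the WT libraries gave 15.99, 24.8 and 11.4 CPM and the cKO libraries 10.3, 16.7 and 26.0 CPM. WT vehicle replicate 3 lay within the cKO vehicle range, and WT vehicle replicate 4 was the highest library of all. Loss of transketolase with vehicle gave a log2 fold change of -1.12 (SE 0.46, 95% interval -2.14 to -0.10, edgeR adjusted p = 0.625), and it was -0.58 (edgeR adjusted p = 0.825) without the 3 libraries at the end of the first component. Under DMαKG genotype gave 0.02 (SE 0.46, 95% interval -0.98 to 1.03). DMαKG gave 0.81 (SE 0.46, edgeR adjusted p = 0.380) in cKO mice and -0.33 (SE 0.45) in WT mice, which turned to 0.19 without WT vehicle replicate 4 and to 0.43 without the 3 libraries, and the difference between these was 1.14 (SE 0.65, edgeR adjusted p = 0.955). Gzmb was nearest to Cdc27, of the anaphase-promoting complex (r = 0.79), Phtf2 (r = 0.78) and Arl5c (r = 0.77), the lowest of such correlations among the members.

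Cytotoxic lymphocytes other than Tregs also make granzyme B, so their markers are given beside it. Of 10 markers of NK cells and CD8 T cells, 5 were tested, 2 higher and 3 lower in cKO with vehicle, and their sum was 22.1 to 31.8 CPM in WT vehicle, 24.3 to 25.6 CPM in cKO vehicle, 21.6 to 24.9 CPM in WT DMαKG and 26.9 to 34.0 CPM in cKO DMαKG. Klra4 was at 0 in 11 of 12 libraries. Of 10 plasmacytoid dendritic cell markers, 7 were tested and 6 were lower in cKO with vehicle (median log2 fold change -0.76, 4 with an unadjusted p below 0.05, 0 past the threshold); their sum was 158 to 198 CPM in WT vehicle, 162 to 171 CPM in cKO vehicle, 161 to 181 CPM in WT DMαKG and 131 to 184 CPM in cKO DMαKG. Siglech, the most specific of these, stood at 21.4, 9.11 and 3.09 CPM in WT vehicle and at 0.271, 2.42 and 1.496 CPM in cKO vehicle. With DMαKG it was at 2.99, 2.95 and 1.49 CPM in WT and at 1.81, 1.10 and 2.86 CPM in cKO. There the genotype estimate was -0.37 (SE 0.76), against -3.00 (SE 0.76) with vehicle. Averaged over treatments Siglech gave -1.68 (SE 0.53, edgeR adjusted p = 0.197). In that contrast Ccr9, a chemokine receptor on this list that T cells also express, fell by 0.87 on the log2 scale in cKO (SE 0.16, edgeR adjusted p = 0.0213). It averaged 12.4 ± 2.96 CPM in WT vehicle, 7.30 ± 1.44 CPM in cKO vehicle, 9.74 ± 1.86 CPM in WT DMαKG and 4.95 ± 0.651 CPM in cKO DMαKG. The part of these cells in the values of Gzmb, and of Nkg7 described next, was not tested.

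Of 21 other genes of cytotoxic granules, 19 were in the table and 16 were tested; with vehicle 11 were higher and 5 lower in cKO (median log2 fold change 0.15), 0 passed and 2 had an unadjusted p below 0.05. Nkg7, a membrane protein of cytotoxic granules, was the 1 gene of all 7 lists of related genes to pass in any contrast with edgeR. It passed for genotype averaged over treatments, as 1 of 86 tested list genes, where 1.01% of all tested genes passed. In that contrast DESeq2 called 5 genes of these lists and limma voom 14, out of 401 and 1038 called over all genes. Nkg7 stood at 17.3, 15.1 and 29.8 CPM in WT vehicle and at 10.9, 13.0 and 11.5 CPM in cKO vehicle, and at 22.0, 23.5 and 23.6 CPM in WT DMαKG and 15.3, 11.1 and 14.9 CPM in cKO DMαKG. Under DMαKG all 3 cKO libraries lay below all 3 WT libraries, as they did with vehicle. Averaged over treatments it fell by 0.78 on the log2 scale in cKO (SE 0.16, edgeR adjusted p = 0.0379), and with vehicle alone the estimate was -0.82 (SE 0.22, edgeR adjusted p = 0.310). The call of Nkg7 was lost in 9 of the 12 fits that left out 1 library, with estimates of -0.87 to -0.60 and edgeR adjusted p from 0.0251 to 0.0912. It was kept without WT vehicle replicate 3 or 4 and without cKO DMαKG replicate 3. DESeq2 (adjusted p = 0.000717) and limma voom (adjusted p = 0.0178) called it too. Gzmb over the same average stood at -0.55 (SE 0.32, edgeR adjusted p = 0.541). Lamp1, a lysosomal membrane protein, averaged 135 ± 5.88 CPM in WT and 157 ± 7.96 CPM in cKO with vehicle (log2 fold change 0.22, SE 0.09, edgeR adjusted p = 0.602).

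Fgl2 (chromosome 5, 21372673 to 21378386) varied within groups more than between them. It stood at 29.3, 29.0 and 91.9 CPM in WT vehicle and at 45.1, 50.3 and 42.2 CPM in cKO vehicle. In mice given DMαKG, WT libraries gave 22.4, 32.5 and 54.3 CPM and the cKO libraries 102, 36.6 and 49.0 CPM. A single high library, WT vehicle replicate 4 or cKO DMαKG replicate 1, set the mean of its group. The genotype log2 fold change was -0.13 (SE 0.52, 95% interval -1.28 to 1.02) with vehicle and 0.78 (SE 0.52, 95% interval -0.38 to 1.93, edgeR adjusted p = 0.642) with DMαKG. Without WT vehicle replicate 4 the vehicle estimate was 0.65. Without the 3 libraries at the end of the first component, it was 0.70 with vehicle (edgeR adjusted p = 0.718), 1.18 with DMαKG (edgeR adjusted p = 0.402) and 0.94 averaged over treatments (edgeR adjusted p = 0.193), against 0.32 (SE 0.37) with all libraries. Genotype under DMαKG was 0.26 without cKO DMαKG replicate 1. DMαKG gave -0.46 (SE 0.52) in WT mice, which turned to 0.32 without WT vehicle replicate 4, and 0.44 (SE 0.52) in cKO mice, which turned to -0.08 without cKO DMαKG replicate 1.

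Macrophages also express Fgl2. The summed monocyte and macrophage markers were 71.6 CPM in WT vehicle replicate 4 and 82.6 CPM in cKO DMαKG replicate 1, the libraries with the highest Fgl2, against 184 and 160 CPM in WT vehicle replicates 2 and 3, where Fgl2 was near 29 CPM. The highest sum, 209.5 CPM, was in cKO DMαKG replicate 3, where Fgl2 stood at 49.0 CPM, above the 36.6 CPM of cKO DMαKG replicate 2 with a sum of 82.4 CPM. The part of these cells in the Fgl2 values was not tested. The interval of Fgl2 overlaps that of Ccdc146, which ranged from 0.22 to 1.21 CPM, with no shared exon. The genes most like Fgl2 were Lsr, a lipoprotein receptor (r = 0.85), Slc22a15, a membrane transporter (r = 0.83), and Bid, a proapoptotic gene (r = 0.83). Of 6 genes around Fgl2 signalling and related inhibitory receptors, 4 were tested, and 0 were higher and 4 lower in cKO with vehicle (median log2 fold change -0.24), with 0 past the threshold and 2 with an unadjusted p below 0.05. Tigit, an inhibitory receptor that drives Fgl2 in Tregs, averaged 194 ± 20.7 CPM in WT against 144 ± 32.8 CPM in cKO (log2 fold change -0.43, SE 0.16, edgeR adjusted p = 0.574). Fcgr3, a low-affinity Fc receptor, averaged 3.52 ± 2.01 CPM in WT against 1.23 ± 0.338 CPM in cKO (log2 fold change -1.51, SE 0.63, edgeR adjusted p = 0.619).

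The members did not vary as a block. Of 28 pairs among the 8 tested members, 15 had a positive and 13 a negative Pearson correlation of log2 CPM over the 12 libraries; 3 had a permutation p below 0.05 and 0 had an adjusted p below 0.05. The pairs share libraries, and the points include differences between groups. Il10 and Areg gave r = 0.70 (two-sided permutation p = 0.0299, adjusted p = 0.329) and rho = 0.69 (permutation p = 0.0149, adjusted p = 0.206). Their r was 0.85 (permutation adjusted p = 0.283) without the 3 libraries at the end of the first component. For deviations from the group means it was 0.74 (permutation adjusted p = 0.0602). It was 0.56 without cKO vehicle replicates 2 and 4, the farthest from the median of Il10. Il10 and Gzmb gave r = 0.63 (permutation p = 0.0171, adjusted p = 0.329) and rho = 0.63 (permutation p = 0.0304, adjusted p = 0.213), and r was 0.30 without those libraries, 0.73 (permutation adjusted p = 0.283) without the 3 libraries at the end of the first component and 0.41 for deviations from the group means. Tgfb1 and Ebi3 gave r = 0.52 (permutation p = 0.0352, adjusted p = 0.329) and rho = 0.75 (permutation p = 0.00718, adjusted p = 0.201), and r was 0.89 without WT DMαKG replicate 1 and cKO DMαKG replicate 3, the farthest from the median of Tgfb1. The ectoenzymes of the same pathway, Nt5e and Entpd1, gave r = 0.12 (permutation p = 0.709, adjusted p = 0.879) and rho = -0.12 (permutation p = 0.716, adjusted p = 0.858).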

How the data were processed

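RNA from 12 libraries, 4 groups of 3 by genotype and treatment as labelled, was read from a table of estimated counts, FPKM and TPM per gene that the authors deposited. As tools, with no role given, the submitters' processing notes list featureCounts 1.5.0-p3, HISAT2 2.0.5 and DESeq2 1.16.1, and as the build mm10. The deposited estimated counts were not normalized; 36.0% of values were not whole and were rounded, although tests had been planned for whole counts. The FPKM that the authors deposited are scaled by length and library size, and the TPM that the authors deposited by length and to a common sum, per the file headers; TPM served only to order levels between genes. The members and gene lists were chosen with earlier results of these data known.

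edgeR 4.0.16 (R 4.3.3) tested the 12903 genes kept by its expression filter, with TMM scaling and a robust quasi-likelihood fit of 1 mean per group to all 12 libraries (8 residual degrees of freedom), adjusted by Benjamini-Hochberg within a contrast at 0.05. The interaction is the DMαKG effect in cKO minus that in WT, and averaged contrasts weight both levels of the other factor equally. Errors after ± are SDs. P-values measure the spread between these libraries. Correlations used log2 CPM (prior count 1) and 100000 resamples, adjusted over 28 pairs. Named genes are Tkt, Foxp3, the members, the genes of each list past the threshold or else the 2 with the smallest p with vehicle (1 of these is not reported here), and the 3 genes most correlated with each member; Ddx3y, Zfp119b, Ccdc146 and Siglech were added after their values were seen. Alternatives were other scalings and filters, DESeq2 1.42.0, limma 3.58.1 voom with quality weights, only the groups compared, a replicate block, a Y-linked covariate, each library left out in turn and the 3 libraries left out together; a fit without robust estimation, and the correlations without the 3 libraries, were added after seeing the data. On simulated data for genotype with vehicle, over 12773 genes, 50 genes were changed at each size; the fit recovered 24% of those changed 1.5-fold, 72% of those changed 2-fold and 98% of those changed 3-fold or 4-fold. Each rate is over the changed genes of that size. It is not a rate for members with wide intervals, such as Areg and Il10.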

Additional observations from a re-analysis of the deposited data

How the results depend on the processing

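Over all contrasts and alternatives, 165 counts of members past the threshold were made and 162 were 0. The 3 others were 1 member each, all in limma voom with quality weights: Ebi3 for genotype under DMαKG and averaged over treatments, and Entpd1 for DMαKG averaged over genotypes. Of 1320 fold changes of members under alternatives, 1236 kept their direction and side of the threshold, and 3 passed it. A further 80 changed sign from a main estimate no larger than its standard error, and some of these moved by more than that. The vehicle genotype estimate of Fgl2 went from -0.13 (SE 0.52) to 0.65 without WT vehicle replicate 4. Ebi3 for DMαKG averaged over genotypes reversed from 0.19 to -0.030 without the 3 libraries at the end of the first component, and the cause was not tested. Among pairs of members, 1 passed when deviations from the group means were correlated (Tgfb1 and Ebi3, r = 0.83, two-sided permutation adjusted p = 0.0174), and 0 without the 3 libraries. Nkg7 averaged over treatments was not called with the replicate block, at an adjusted p of 0.01, without the 3 libraries or with the Y-linked covariate. Of the 86 tested genes in the 7 lists of related genes, edgeR called 1 or 0 in each contrast. DESeq2 called 1 for genotype with vehicle, 5 averaged over treatments, 5 for DMαKG in cKO mice and 4 averaged over genotypes, and voom 4, 14, 5 and 9. Without the 3 libraries edgeR called 0, 0, 1 and 2.

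Counts over all genes moved more. For genotype with vehicle (8 in edgeR) they were 100 by DESeq2, 245 by voom, 1 to 5 leaving out 1 library, 3 without the 3 libraries and 0 with only the groups compared. In the same order they were 140, 237, 1 to 33, 1 and 3 for genotype under DMαKG (24), and averaged over treatments (130) they were 401, 1038, 52 to 164 and 68. For DMαKG in cKO mice (0) they were 389, 450, 0 to 137, 15 and 4, averaged over genotypes (1) they were 343, 1546, 0 to 619 and 163, and in WT mice (0) DESeq2 gave 2 and voom 8. The interaction (0) gave 1 by DESeq2 and 1 by voom. Without robust estimation the genotype counts were 3 with vehicle and 9 with DMαKG, and with the Y-linked covariate 3 and 4.

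Libraries with the same number did not consistently deviate together. Between the genotypes, their correlations were -0.12, 0.13 and 0.44 with vehicle and -0.23, -0.09 and -0.27 with DMαKG. The 0.44, of the vehicle libraries numbered 4, lay above the differently numbered vehicle libraries, which ran from -0.40 to 0.39. The numbers were not taken to pair mice in the main fit. With the replicate number as a block 0 members passed in any contrast, and the counts over all genes were 1 for genotype with vehicle, 0 under DMαKG and 12 averaged over treatments. With 3 libraries a group, the intervals of Areg, Il10, Gzmb and Fgl2 leave room for changes of several fold, and Il12a lay below what these depths can compare.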
